A study of Homo sapiens with 4 samples.

Results

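Long noncoding RNA genes and microRNA host genes that are transcribed at high levels can carry wide domains of acetylated histone. The acetylation of histone H3 at lysine 9 (H3K9ac) was examined here at 4 such loci in T98G cells (passage 4), a widely used line that was derived from a human glioblastoma. The cells had been transduced with a lentivirus that carried either the control shRNA (shNT) or one that targets RBBP4 (shRBBP4), a histone-binding protein of several chromatin complexes. Chromatin immunoprecipitation and sequencing gave, for each shRNA, 1 library of H3K9ac and 1 of input DNA. The lists of called H3K9ac regions of the 2 immunoprecipitated libraries were analysed, and the inputs were not analysed here. Whether the transduced cells were a pool or a clone, and how far RBBP4 was depleted, is not given in the sources used here. The loci were taken as hg19 windows named for NEAT1 (chromosome 11, 65180000 to 65220000), MALAT1 (chromosome 11, 65255000 to 65280000), the 3′ end of VMP1 with MIR21 (chromosome 17, 57900000 to 57925000) and MIRLET7BHG (chromosome 22, 46440000 to 46515000). Every region that overlapped a window by at least 1 bp was included, which gave 73 of the 26828 shNT regions and 80 of the 39303 shRBBP4 regions. The windows were chosen by the width of their regions and of their groups of regions in these same lists, so widths, extents and ranks are given as descriptions only. With 1 library per shRNA no difference between libraries has a replicate check, and no p-value was computed. The depth of the libraries is unknown.

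H3K9ac is laid down by histone acetyltransferases and removed by deacetylases, and it marks active promoters and the first part of transcribed genes. NEAT1 and MALAT1 are neighbouring, mostly unspliced long noncoding RNAs that stay in the nucleus. NEAT1 is the scaffold of paraspeckles, and MALAT1 gathers in nuclear speckles. VMP1 codes for a membrane protein needed for autophagy, and MIR21, which encodes a microRNA that is abundant in glioblastoma, lies at its 3′ end and is also transcribed from a promoter of its own within VMP1. MIRLET7BHG is the noncoding host transcript of a let-7 cluster, and let-7 microRNAs are known as repressors of growth-promoting genes. In the RefSeq gene order (GRCh38.p14) MIR21 is the next gene to start after VMP1, MIR612 the next after NEAT1 and TALAM1 the next after MALAT1, while MIR3619, MIRLET7A3 and MIR4763 are among those that start after MIRLET7BHG. Exons and transcription starts were not placed on the regions, because no hg19 annotation was used here. The starts of MALAT1, VMP1 and MIRLET7BHG in the RefSeq promoter table and the microRNA hairpins of MIR21 and the let-7 cluster are on the + strand, so lower coordinates are upstream for these genes.

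Mature microRNAs of MIR21, MIRLET7A3 and MIRLET7B are shown because they are the products these 2 host loci are known for. The products of MIR4763, which have other seeds, are not shown. Sequences are from RefSeq (GRCh38.p14, + strand), written 5′ to 3′, and the capitals mark the seed, bases 2 to 8, which pairs with target RNAs.
hsa-miR-21-5p: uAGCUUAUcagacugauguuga
hsa-let-7a-5p: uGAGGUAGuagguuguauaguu
hsa-let-7b-5p: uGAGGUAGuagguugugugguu
hsa-let-7a-3p: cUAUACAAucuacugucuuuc
hsa-let-7b-3p: cUAUACAAccuacugccuuccc
MIRLET7A3 and MIRLET7B give products with the same seed from both arms, and miR-21-5p has another seed. The let-7a and let-7b 5p forms differ by A17G and A19G, with the let-7a base first and positions counted from 1 at the 5′ end. Among the 2370 mature human microRNAs of the table, 11 carry the let-7 5p seed and 2 the miR-21-5p seed. The H3K9ac regions do not measure the microRNAs themselves.

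Each window had more of its length covered by H3K9ac regions in shRBBP4 than in shNT, while the number of regions was equal at NEAT1 and nearly so at MIRLET7BHG. With regions of at least 150 bp only, the numbers at NEAT1 were 7 and 11, a ratio of 1.57. The NEAT1 window had 12 regions in shNT and 12 in shRBBP4, which covered 6.45 and 8.11 kb. The MALAT1 window had 17 and 22 regions, over 8.52 and 11.5 kb. The VMP1 and MIR21 window had 12 and 15 regions, over 7.52 and 8.78 kb. The MIRLET7BHG window, with 32 and 31 regions over 23.7 and 29.5 kb, had the most regions and the greatest covered length of the 4 windows in both libraries. It is also the longest window, with 75 kb against 40 kb at NEAT1 and 25 kb at each of the others. The ratio of covered length, shRBBP4 to shNT, was thus 1.26 at NEAT1, 1.35 at MALAT1, 1.17 at VMP1 and MIR21 and 1.25 at MIRLET7BHG. Over the whole lists it was 1.51, so all 4 windows lay below the ratio of the lists. The whole lists include many groups of regions called in 1 library only. Over groups joined across gaps of up to 1 kb that held both libraries, the ratio of summed covered length was 1.32. The MALAT1 window lay slightly above that value and the 3 other windows below it. Unlike that value, the window ratios also count groups with shRBBP4 regions only, of 187 bp at MALAT1 and 361 bp at MIRLET7BHG. The bases of the comparison therefore differ, and the small excess at MALAT1 cannot be read as a difference. The ratio of region numbers over the 4 windows together was 1.10 (95% interval 0.788 to 1.53, counting error only). This interval includes the whole-list ratio of 1.46, and the 4 separate ones, which run from 0.411 to 2.92 at their outermost, include it as well. Regions lie in groups, and the 2 counts come from the same loci, so they are not independent. These intervals account for neither, and how far they are off is not known.

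**Figure D1:**
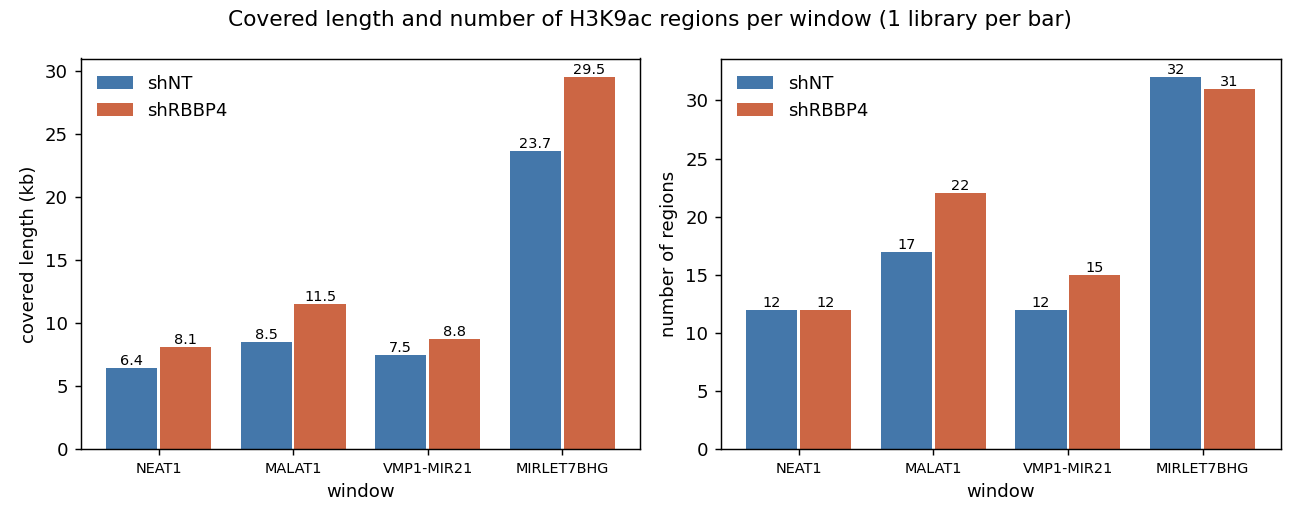
Length covered by H3K9ac regions (left, kb) and number of regions (right) in each window, with 1 bar per library and no error bars because each shRNA has 1 library. The shRBBP4 bar is taller than the shNT bar for covered length in all 4 windows, with 8.78 against 7.52 kb at VMP1-MIR21 and 29.5 against 23.7 kb at MIRLET7BHG, while at NEAT1 both libraries have 12 regions.

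At NEAT1 the libraries shared a core of strong regions and differed most on the side of higher coordinates. The regions lay between 65186749 and 65198231 in shNT and between 65186770 and 65197786 in shRBBP4. The widest region was also the highest-scoring one in both libraries. It ran from 65190425 to 65192477 in shNT (2053 bp) and from 65190412 to 65192398 in shRBBP4 (1987 bp). The authors' score of a region was used only as a percentile, the share of its own list with a score at or below it, and these regions stood at percentiles 98.4 and 99.4. To the left, the shNT regions of 123 and 492 bp, at percentiles 71.7 and 89.0, corresponded to 1 shRBBP4 region of 680 bp at percentile 97.4. To the right, the shRBBP4 list had a region of 1287 bp from 65194605 to 65195891, at percentile 80.9, of which 1279 bp were uncovered in shNT. It filled most of a gap of 1999 bp between shNT regions. When regions of 1 library were joined across gaps of up to 1 kb, NEAT1 formed 1 cluster of 11017 bp in shRBBP4. In shNT it formed 2 clusters of 7864 and 1620 bp. The single shRBBP4 cluster also depended on a gap of 989 bp, just under the limit, before a region of 153 bp at percentile 22.4. With a gap of 500 bp there were 2 clusters in shRBBP4 and 4 in shNT, and with 2 kb each library had 1. Regions without an overlapping counterpart were short, with widths of 294 and 132 bp in shNT and of 147, 235 and 153 bp in shRBBP4.

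The MALAT1 window held a dense block and a sparse one, and the libraries differed more in the sparse one. The dense block, a joint cluster of both lists from 65263724 to 65273960, spanned 10.2 kb and had 10 regions in each library, covering 7444 bp in shNT and 8785 bp in shRBBP4, a ratio of 1.18. Among 18106 joint clusters of both lists it was the second by covered length in shNT and the third in shRBBP4. The widest region of the whole shNT list lay here, with 4576 bp from 65266641 to 65271216 at percentile 97.6. In shRBBP4 the same stretch was split into regions of 3421, 868 and 1121 bp at percentiles 97.2, 86.8 and 94.9. The gaps between them were 105 and 59 bp. The smallest gap in either list was 52 bp, and 22.3% of shRBBP4 gaps of up to 1 kb were 100 bp or shorter. The last of these regions reached 567 bp into a stretch that was uncovered in shNT, from 65271623 to 65272189. The sparse block ran upstream of it from 65255465 to 65262379 and had 7 shNT and 11 shRBBP4 regions, which covered 1076 and 2568 bp, a ratio of 2.39. Its highest percentiles were 44.3 in shNT and 61.1 in shRBBP4, so it consisted of weak and middling regions in both. Of these regions, 3 of the 7 and 3 of the 11 overlapped a region of the other library, against 76.99% of all shNT and 50.04% of all shRBBP4 regions. The widest region of the block, 719 bp from 65258691 to 65259409, was called only in shRBBP4.

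At the 3′ end of VMP1 with MIR21, the strongest region of the 4 windows was found in both libraries. It spanned 4101 bp in shNT, at percentile 99.6 and score rank 114, and 3814 bp in shRBBP4, at percentile 99.5 and score rank 189. It belonged to a joint cluster from 57913932 to 57924439 with 7 shNT and 10 shRBBP4 regions, covering 5913 and 6742 bp, a ratio of 1.14. Just upstream of the wide region both lists had a gap of similar size and place, 436 bp from 57914928 to 57915365 in shNT and 427 bp from 57914958 to 57915386 in shRBBP4. On the other side of this gap, 1 shNT region of 904 bp at percentile 96.8 corresponded to 3 shRBBP4 regions of 155, 178 and 493 bp at percentiles 50.02, 88.6 and 98.4. Downstream of the wide region the relation was the other way round, as shNT regions of 238 and 274 bp both met 1 shRBBP4 region of 727 bp at percentile 96.0, which also reached the end of the wide shNT region. A second joint cluster lay farther upstream, from 57905736 to 57909480, with 5 regions in each library. There, a region of 841 bp at percentile 97.0 in shRBBP4 met shNT regions of 433 and 161 bp at percentiles 83.7 and 77.2. The 2 clusters were separated by a stretch without regions of 5358 bp in shNT and 4451 bp in shRBBP4.

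MIRLET7BHG held the longest chain of regions of each list, but the chain broke at different places. The joint cluster from 46450421 to 46482946 ranked first of 18106 by span and by covered length in each library, and its regions covered 70.5% of the span in shNT and 84.9% in shRBBP4. In shNT, 19 regions from 46459801 to 46482250 were joined into a chain of 22450 bp, and a separate chain of 6247 bp with 9 regions lay upstream. In shRBBP4 the cluster formed chains of 16.4 and 14.9 kb, with 14 and 10 regions, the first and second of that list by span. The break in shRBBP4 was a gap of 1179 bp from 46466860 to 46468040. In shNT the same place held a region of 123 bp, at percentile 6.84, with gaps of 672 and 693 bp beside it, so the long shNT chain depended on 1 weak region of the smallest width in the list. The breaks in shNT were gaps of 1398 and 1222 bp on either side of a region of 347 bp from 46458232 to 46458578. In shRBBP4 a region of 1849 bp, from 46458005 to 46459853 at percentile 96.1, covered the second of these gaps completely.

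Within the MIRLET7BHG cluster, 24 shRBBP4 regions covered more length than 29 shNT regions, and the division ran both ways. From 46468040 to 46474691 there were 7 shNT regions covering 5447 bp and 3 shRBBP4 regions of 2541, 1850 and 2115 bp. The highest-scoring region of each library in the window lay in this stretch, 1444 bp at percentile 98.9 in shNT and 2541 bp at percentile 99.5 in shRBBP4, and the first was contained in the second. In 2 stretches covered in both libraries, shNT had fewer regions. From 46464491 to 46466673, 1 shNT region of 2183 bp met shRBBP4 regions of 1930 and 147 bp. The other stretch held the widest shNT region of the window, 4108 bp from 46476281 to 46480388 at percentile 97.9. Together with the next shNT region it met 3 shRBBP4 regions of 3294, 985 and 129 bp, at percentiles 89.6, 70.6 and 10.3. The widest shRBBP4 region of the window lay elsewhere, from 46459943 to 46464006 (4064 bp, percentile 98.4), and met shNT regions of 950 and 3607 bp. Regions of at least 1 kb made up 62.7% of the covered length in shNT (7 regions) and 76.9% in shRBBP4 (10 regions). Downstream of the MIRLET7BHG cluster, 2 shRBBP4 regions from 46484105 to 46484626, at percentiles 15.6 and 24.2, had no shNT counterpart. Upstream of the cluster, from 46447615 to 46449395, there were 2 shNT and 4 shRBBP4 regions, with highest percentiles of 14.1 and 77.3.

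**Figure D2:**
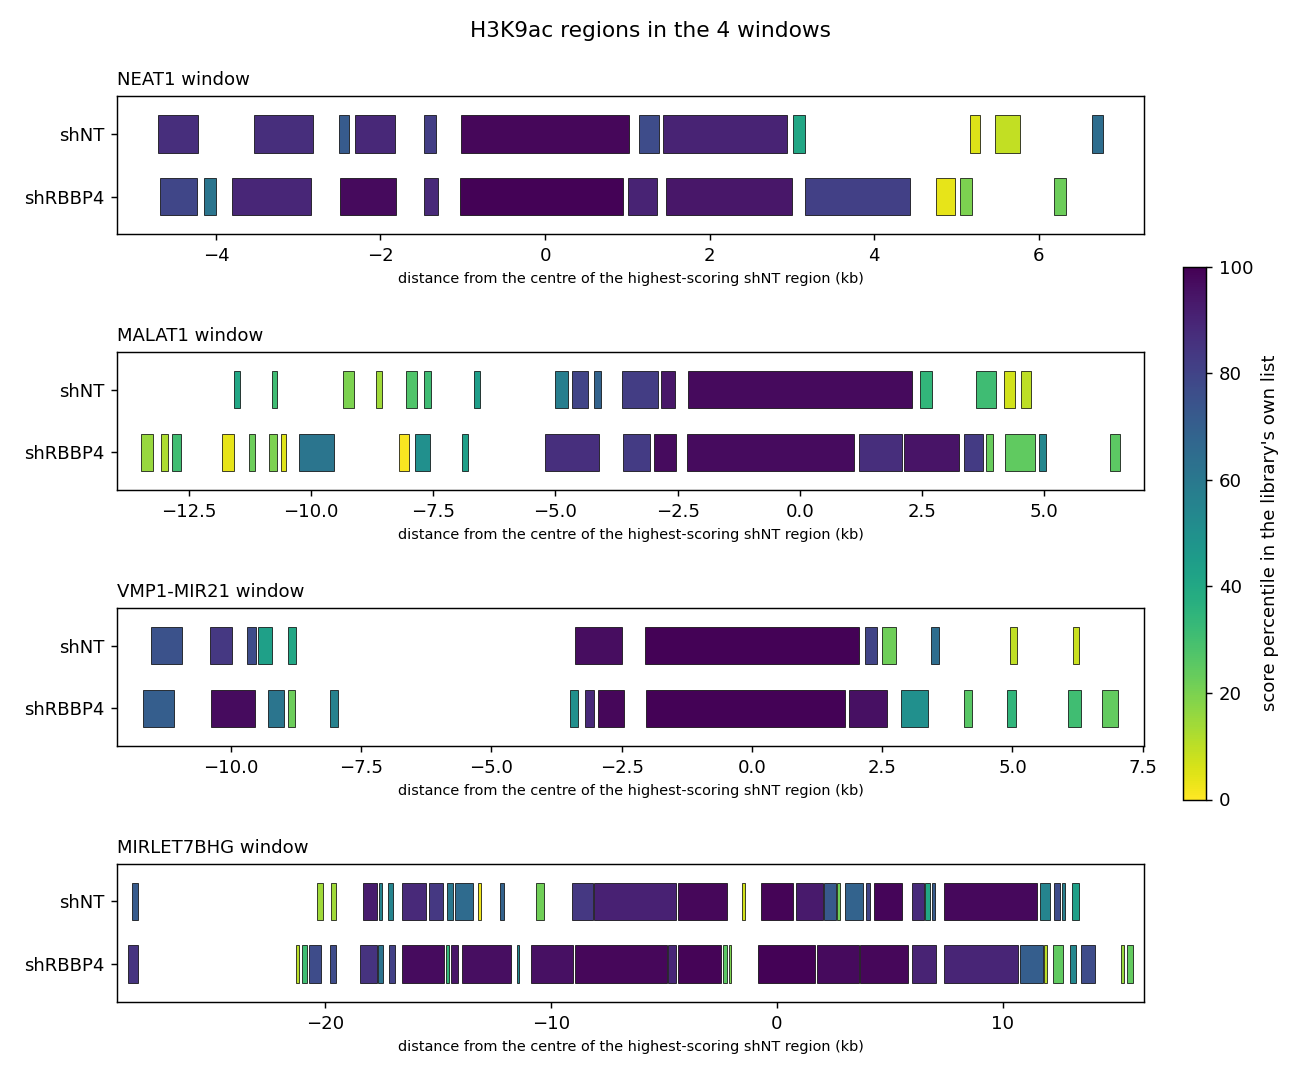
H3K9ac regions of each library in the 4 windows, drawn to scale as boxes against the distance from the centre of the highest-scoring shNT region (kb) and coloured by score percentile within the library's own list. The highest-scoring region of each window (darkest) has an overlapping strong region in the other row. The 4576 bp shNT region at MALAT1 is split in shRBBP4, whereas 7 shNT regions near the centre of MIRLET7BHG stand against 3 in shRBBP4.

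The libraries divided the stretches they shared into regions in different ways. Regions of both libraries that overlapped were chained into common stretches, which gave 38 stretches with both libraries in the 4 windows. Of these, 19 joined 1 region of each library, 7 joined several shNT regions with 1 shRBBP4 region, 3 joined 1 shNT region with several shRBBP4 regions and 9 joined several of each. Over the whole lists, 17241 stretches held both libraries, and 75.5%, 11.98%, 8.06% and 4.51% of them were of these kinds, in the same order. In shNT, 16 of the 73 regions overlapped at least 2 regions of the other library (8.38% of the whole list did), and in shRBBP4 20 of 80 did (7.49% of the list). A wide region meets several regions of the other list more easily, and the windows were chosen for wide regions. The differences from the whole lists in these counts and in the kinds of stretches are therefore descriptions only. Of the 59 gaps of up to 1 kb between neighbouring shNT regions, 26 were covered completely and 51 at least in part by shRBBP4 regions. Of the 67 such gaps in shRBBP4, 18 were covered completely and 43 at least in part by shNT regions. Covered gaps were not counted over the whole lists, so whether these shares are usual for the lists is not known. The median gap over the 4 windows was 191 bp in shNT and 161 bp in shRBBP4, against 217 and 221 bp over the whole lists. Windows differed in this, with longer medians at VMP1 and MIR21 (295.5 and 340.5 bp) and, in shNT, at NEAT1 (244.5 bp). Joined across gaps of up to 100 bp, a choice made after seeing the data, the 73 and 80 regions became 57 and 56.

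The positions covered in shNT were mostly covered in shRBBP4 as well. The reverse shares were lower by construction, since the same shared length was divided by the greater covered length of shRBBP4. The shRBBP4 regions covered 87.0% of the shNT length at NEAT1, 85.6% at MALAT1, 85.9% at VMP1 and MIR21 and 94.0% at MIRLET7BHG, against 69.7% over the whole list. The shNT regions covered 69.2%, 63.2%, 73.6% and 75.3% of the shRBBP4 length in the same order, against 46.1% over the whole list. Counted by region, 65 of 73 shNT regions overlapped an shRBBP4 region (76.99% of the whole list) and 56 of 80 shRBBP4 regions overlapped an shNT region (50.04% of the whole list). Wide regions meet this rule more easily, and the windows were chosen for wide regions. The 8 shNT and 24 shRBBP4 regions without an overlap had median percentiles of 29.99 and 24.6, against 31.0 and 34.7 for regions without an overlap in the whole lists. None of them stood above percentile 90, where 27 of 6172 such shNT regions and 272 of 19634 such shRBBP4 regions of the whole lists stood. The highest of the 24, at percentile 77.3, was a region of 621 bp at the downstream end of the MIRLET7BHG cluster, from 46482326 to 46482946. Stretches of at least 500 bp that were covered in 1 library only were all in shRBBP4, with 1 at NEAT1, 2 at MALAT1, 1 at VMP1 and MIR21 and 3 at MIRLET7BHG. The same count was not made over the whole lists, where shRBBP4 regions cover 1.51 times the shNT length. It therefore cannot be read as particular to these loci. The longest shNT-only stretch in the 4 windows was 294 bp, at NEAT1.

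The edges of the widest shNT region of each window were nearer to an shRBBP4 edge at lower coordinates than at higher ones. The widest shNT region of each window started within 13 bp (NEAT1), 25 bp (MALAT1), 21 bp (VMP1 and MIR21) and 17 bp (MIRLET7BHG) of a start in shRBBP4. The nearest ends were 79, 207, 266 and 258 bp away. The widest shRBBP4 region at MIRLET7BHG, which lay elsewhere in the window, started 142 bp from the nearest shNT start. The following shares over the lists use regions of at least 1 kb that overlap a region of the other library, which are 577 of 577 in shNT and 1017 of 1036 in shRBBP4. Over all 11 shNT regions of at least 1 kb in the windows, 7 starts lay within 50 bp of an shRBBP4 start (43.8% over the list) and 2 ends within 50 bp of an shRBBP4 end (44.9% over the list). For the 17 shRBBP4 regions of at least 1 kb, 8 starts (38.9% over the list) and 3 ends (39.3% over the list) lay that close. The 4 starts over 100 bp away among the 11 shNT regions were all at MIRLET7BHG, at 122, 599, 868 and 909 bp. Among the 17 shRBBP4 regions, starts over 100 bp away also lay at NEAT1 (141 bp) and MALAT1 (193 and 321 bp), besides those at MIRLET7BHG. The pattern of the starts thus did not hold throughout these 3 windows.

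Score ranks put VMP1 with MIR21 first and MALAT1 last among the 4 windows by their best region, in both libraries. The best percentile was 99.6 in shNT and 99.5 in shRBBP4 at VMP1 and MIR21, 98.9 and 99.5 at MIRLET7BHG, 98.4 and 99.4 at NEAT1, and 97.6 and 97.2 at MALAT1. The median region told the windows apart more: at MALAT1 it stood at percentile 34.3 in shNT and 37.3 in shRBBP4, and at NEAT1 at 79.4 and 84.7. It was 70.3 and 77.3 at MIRLET7BHG, and 69.7 and 55.7 at VMP1 and MIR21, the only window where the median was lower in shRBBP4. Over the 4 windows together the median was 68.7 and 66.1, and over the whole lists it was 54.8 and 50.02. Above percentile 90 there were 13 of the 73 shNT regions (10.1% of the whole list) and 21 of the 80 shRBBP4 regions (10.4% of the whole list). Every window had at least as many in shRBBP4 as in shNT, with 2 and 4 at NEAT1, 2 and 3 at MALAT1, 2 and 4 at VMP1 and MIR21 and 7 and 10 at MIRLET7BHG. The widest regions were not the strongest of their lists. Regions of at least 1 kb numbered 11 of 73 in shNT (2.15% of the whole list) and 17 of 80 in shRBBP4 (2.64% of the whole list). In shNT the windows held all 3 regions of at least 4 kb, with score ranks of 114, 566 and 640. In shRBBP4 they held 1 of 3 regions of at least 4 kb and 4 of 16 of at least 3 kb.

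**Figure D3:**
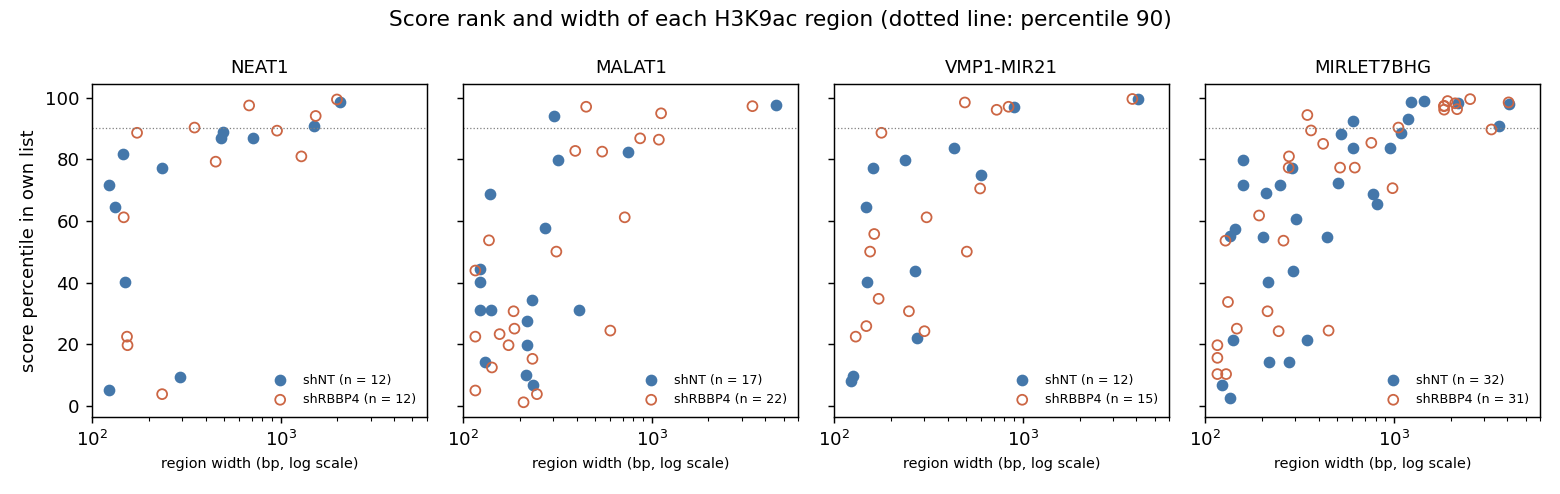
Score percentile within the library's own list against region width (bp, log scale) for every region of the 4 windows, with filled points for shNT and open points for shRBBP4. Most narrow regions at MALAT1 lie below percentile 60 in both libraries, while the regions wider than 3 kb lie between percentiles 89.6 and 99.6.

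Set beside other joint clusters, the difference in covered length at these loci lay in the middle range. The windows touched 10 joint clusters, of which 8 had regions of both libraries and 2 had shRBBP4 regions only (42.3% of all joint clusters had regions of 1 library only). Of these 8, 3 were at least 1.5-fold longer in shRBBP4 (41.5% of all joint clusters with both libraries were), and 0 were at least 1.5-fold shorter (9.15% were). The 3 were the sparse block at MALAT1 and the 2 upstream groups of the MIRLET7BHG window, with highest shNT percentiles of 44.3, 14.1 and 71.7. The 5 others, with highest shNT percentiles of 83.7 to 99.6, had ratios of 1.14 to 1.26. The median ratio was 1.33 over all 10454 joint clusters with both libraries (quartiles 0.958 and 2.002) and 1.35 over the 458 of at least 4 kb outside the windows (1.06 and 1.90), of which 39.7% were at least 1.5-fold longer and 2.40% at least 1.5-fold shorter. Over the 11 of at least 10 kb outside the windows it was 1.19 (0.965 and 1.53). The main clusters at NEAT1 (1.26), MALAT1 (1.18), VMP1 and MIR21 (1.14) and MIRLET7BHG (1.20) lay within the quartiles of each of these groups.

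**Figure D4:**
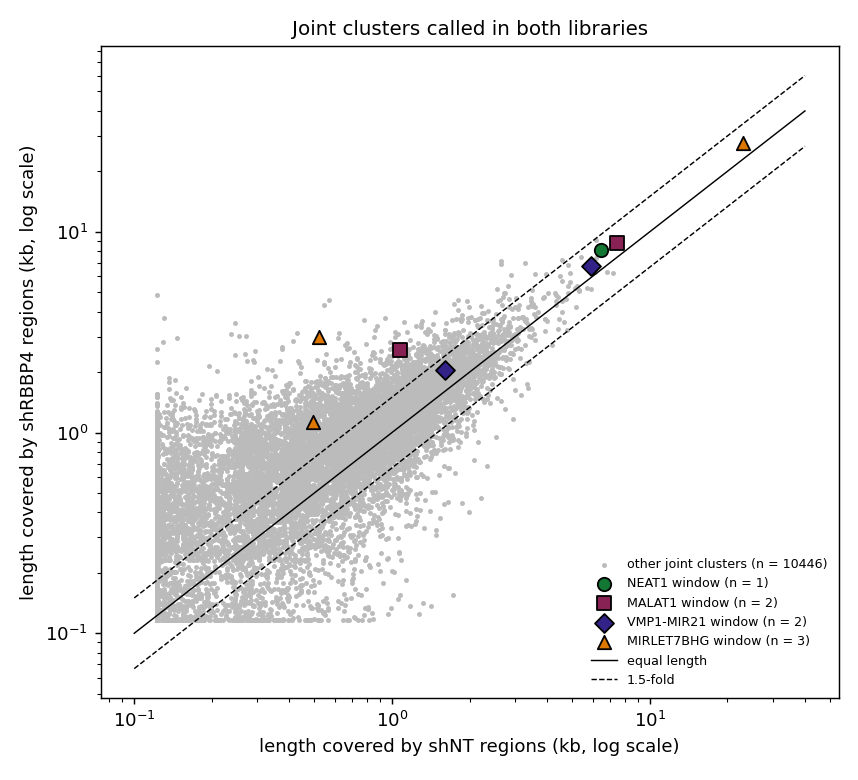
Length covered by shRBBP4 regions against length covered by shNT regions (kb, log scales) for the 10454 joint clusters with regions of both libraries, with those of the 4 windows as large symbols. The main cluster of each window lies between the line of equal length and the 1.5-fold line, at ratios of 1.14 to 1.26, and 3 smaller clusters lie above the 1.5-fold line.

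Distances to the nearest regions outside each window were measured from the outermost region of the same library within it. They were long on both sides at NEAT1 and shorter on at least 1 side at the other windows. Around NEAT1 the distances were 31.2 kb to the left in shNT and 31.8 kb in shRBBP4. To the right they were 45.6 and 41.7 kb. At MALAT1 the nearest lay 4.05 and 2.03 kb to the left and 18.97 and 17.1 kb to the right. At VMP1 and MIR21 the distances were 22.9 kb in both libraries to the left and 6.02 and 4.43 kb to the right. At MIRLET7BHG they were 3.33 and 0.42 kb to the left, where the window cuts through a group of regions, and 65.1 and 63.1 kb to the right.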

How the data were processed

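Members and lists were chosen with earlier results of these data known. The region lists were deposited as 1 file per library. Per the submitters' processing notes, the work used bcl2fastq (2.15.0), BWA, Picard and SICER with GRCh37 or hg19, and no roles are stated. Per the file headers, the track lines carry macs2 and PE. Which caller made the lists was not settled, and its threshold and any use of the input are not stated. Each deposited row holds positions in bp and a score of unstated scale, which was used only for ranks within a list; tied scores share a percentile (1301 distinct scores in shNT, 2104 in shRBBP4). A change in depth or threshold alters how many regions are called, how wide they are and where they split.

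Starts were converted to count from 1. Regions were joined across gaps of up to 1 kb, in each library or in both (joint clusters). Regions were shared when they overlapped by at least 1 bp. The widest and highest-scoring region of each window, and joint clusters with at least 4 regions or 4 kb, were described by position. Ratios of counts have exact conditional 95% intervals. The functions were tested on simulated lists. The planned count at other noncoding RNA host genes was not run, since no hg19 annotation was used here. Alternatives were other score limits, list lengths, widths, gaps, overlap rules and ranks by width. Python 3.11.15, numpy 2.4.6, scipy 1.17.1 and matplotlib 3.10.9 were used.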

Additional observations from a re-analysis of the deposited data

How the results depend on the processing

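No paired analysis was possible because each shRNA has 1 library. Covered length stayed higher in shRBBP4 in all 4 windows, and below the ratio of the whole lists, in the higher-scoring 50% of each list, in lists of equal length and in regions of at least 150 bp. In lists of equal length the covered ratio was 1.17 at NEAT1, 1.08 at MALAT1, 1.06 at VMP1 and MIR21 and 1.18 at MIRLET7BHG, against 1.22 over the lists. Cutting the longer list lowers region counts by construction. The ratio of region numbers then fell to 0.647 at MALAT1, 0.74 over the 4 windows and 1 over the lists. Numbers of clusters follow the joining gap by construction. With a gap of 500 bp there were 4 (shNT) and 2 (shRBBP4) at NEAT1 and 6 and 6 at MALAT1. At VMP1 and MIR21 there were 6 and 7, and at MIRLET7BHG 8 and 6, in the same order. With 2 kb the libraries had equal numbers, 1 each at NEAT1 and at MALAT1. Each had 2 at VMP1 and MIR21 and 2 at MIRLET7BHG. Ranked by width, the median percentile at MALAT1 was 52.2 in shNT and 55.9 in shRBBP4, and the cause was not tested. With 2-fold as the limit, 25.1% of joint clusters were longer and 4.22% shorter in shRBBP4. Of 94 values under alternatives, 76 stayed within the limit set (the counting interval for region ratios, otherwise 1.5 times). The counting intervals are wide, so this limit is a loose one for region ratios. At NEAT1, ratios of 1.57 (at least 150 bp) and 0.75 (lists of equal length) against 1 both stayed within it. Unknown depth limits every comparison between the libraries.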

Other observations

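Between the NEAT1 and MALAT1 windows there were 6 shNT regions covering 1.81 kb, from 65243846 to 65253308, and 10 shRBBP4 regions covering 2.76 kb, from 65239458 to 65253430. The joint cluster at the upstream edge of the MIRLET7BHG window, from 46434364 to 46440624, had 2 shNT regions covering 520 bp and 11 shRBBP4 regions covering 3003 bp. Only 1 region of each library in that cluster reached into the window, so nearly all of this difference lies outside the counts given for MIRLET7BHG.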
